A study of Mus musculus with 32 samples.

Results

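The change in microglia of rTg4510 mice between 4 and 6 months of age was examined across all genes. The libraries were chosen by genotype and age alone: 4 libraries from 6-month and 3 from 4-month rTg4510 mice, 7 of the 28 libraries that passed RNAseq QC and of the 32 sequenced. Replicate 3 at 4 months failed QC and was left out. The 7 wild type (WT) libraries of the same ages were set beside them, and the 2- and 8-month libraries entered the model and a separate comparison.

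Microglia are the resident macrophages of the brain. They renew themselves locally by slow division, and in injured or degenerating tissue they can divide more, lower the surface genes typical of resting microglia, and raise genes for lysosomes, lipid handling and chemokines. Division proceeds from G1 through DNA replication to mitosis, where cyclins, spindle kinesins and kinetochore proteins are made for a short time and then removed, so their transcripts are widely used as signs of dividing cells.

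All animals were female. rTg4510 mice carry human tau with the P301L mutation behind a tetracycline-responsive element, switched on by a transactivator under the CaMKIIα promoter, so that the protein is made in forebrain neurons. WT animals, of strain 129/FVB F1, were littermates without either transgene. Each library came from cells of the pooled forebrains of several mice, taken with CD11b beads, so a library is a pool and not an animal. Gene signals are on a log2 scale, brought by the authors to 1 median in every library (5.63), and changes are differences of log2 signals, 6 months minus 4 months. No read totals were given, so the depth of a library is unknown.

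The cells carried the microglial label's markers. The mean log2 signal over 16 core genes, such as Cx3cr1 and Csf1r, was 10.97 to 11.07 at 4 months and 10.98 to 11.21 at 6 months, and 0 of the 16 passed the limits for a change (6 at unadjusted p under 0.05 by limma). Pearson's r between libraries across all genes was 0.957 to 0.966 within an age and 0.947 to 0.962 between ages. Among the 14 libraries of both genotypes, the second principal component (8.91% of the variance) set replicates 3 and 4 at 6 months apart from replicates 1 and 2 in both genotypes, and the results were therefore also computed with each pair alone. Mapt, the endogenous tau gene, did not pass (0.09, SE 0.45, FDR 0.96), nor did Prnp (-0.22, FDR 0.87).

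Between 4 and 6 months 152 of 18588 genes changed, 58 upward and 94 downward, or 0.818% of the genes tested. A differentially expressed gene (DEG) had a false discovery rate (FDR, the p-value of a limma linear model adjusted by the Benjamini-Hochberg method) under 0.05 and a change over 1.5 fold. Of the genes that fell, 20 were members of a list of mitosis genes, among them Mki67, Top2a and Kif11, and 4 of a list of DNA replication genes. Those that rose included Apoe, Ccl8 and Ccr2, and, with calls that most other settings did not keep, Gpnmb and Lox. The median change of the DEGs was 1.99 fold and 74 exceeded 2 fold. In 151 DEGs the libraries of the 2 ages did not overlap, against 13.2% of all genes, and Dnaaf3 was the exception. The calls were made on the same libraries, so this separation adds no support to them. Without replicate 2 at 4 months 65 genes passed, and a fit of the 7 libraries alone, with 5 residual degrees of freedom in place of 20, gave 1 DEG, Kif11, and 2266 genes at unadjusted p under 0.05 against 2605 in the fit of all 28. With replicates 1 and 2 at 6 months 82 genes passed, and with replicates 3 and 4 alone 55. The share of upward calls was 38.2%, and 49% after quantile normalization.

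**Figure D1:**
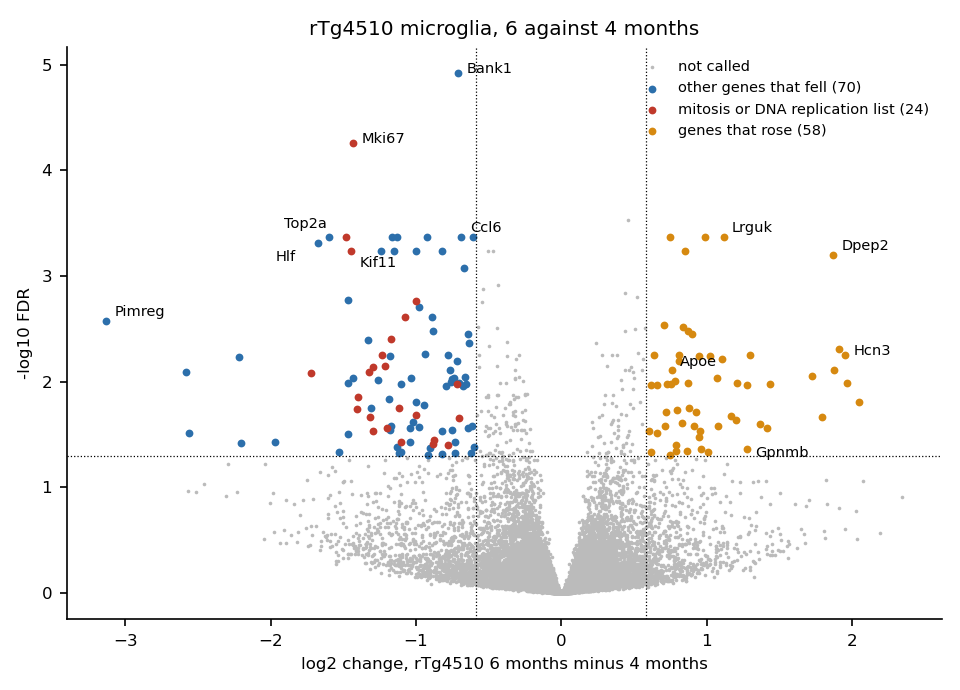
Change of every gene between 4 and 6 months in rTg4510 microglia (x axis, log2 change, 6 minus 4 months) against -log10 FDR (y axis), with dotted lines at 1.5 fold and at an FDR of 0.05. Of the 94 genes that fell, 24 belong to the mitosis or DNA replication list, and they lie between -0.70 and -1.72.

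Of the 64 measured members of the mitosis list 20 fell, 0 rose and 44 did not pass, where 0.506% of all genes fell. The list was written with earlier results of these data known, so its counts are a description and no independent test. The change was below 0 in 62 of the 64, with a median of -0.82 in rTg4510, where the median over all genes was -0.0076. The mean log2 signal over the list was 4.69, 4.84 and 4.62 in the 4-month libraries and 3.99, 3.83, 3.85 and 3.94 in the 6-month libraries. All 6-month libraries were thus below all 4-month libraries. The list mean was 3.84 to 4.15 in the 4 rTg4510 libraries at 2 months and 3.96 to 4.02 in the 3 at 8 months. Every 6-month library was below every 4-month library in 44 of the 64 members, against 6.98% of all genes. The count of 20 became 8 without replicate 2 at 4 months, 13 without replicate 3 at 6 months, 11 after quantile normalization, 5 once the genes under the 25th percentile of signal were removed, and 1 in the fit of the 7 libraries alone. In these bulk samples fewer dividing cells and less RNA per dividing cell cannot be told apart.

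Mki67, which coats mitotic chromosomes and marks all phases of the cycle, had a log2 signal of 5.79, 5.51 and 5.64 at 4 months and of 4.30, 4.16, 4.23 and 4.18 at 6 months. Every 6-month library was more than 1 log2 unit below every 4-month library. Mki67 fell by 1.43 (SE 0.15, FDR 5.5e-05), a 2.70-fold decrease. Kif11, the motor that pushes spindle poles apart, had values of 4.54, 4.59 and 4.65 and then of 3.17, 3.17, 3.09 and 3.15, with no overlap. It fell by 1.45 (SE 0.20, FDR 0.00058). Top2a, which untangles sister DNA, went from 5.17, 5.37 and 5.08 to 4.04, 3.56, 3.49 and 3.82. The lowest 4-month library exceeded the highest 6-month library by about 1 unit, and the change was -1.48 (SE 0.19, FDR 0.00042).

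The 20 ranged over several steps of mitosis, and those beyond the 6 largest were named after their values were seen. Of the kinetochore and its checkpoint, Ttk, Bub1, Bub1b, Cenpe and Cenpf fell. Bub1 was at 4.29, 4.49 and 4.25 and then at 2.98, 2.69, 2.99 and 3.11, a change of -1.40 (FDR 0.014). Cenpf, at 5.34, 5.4 and 5.36 before and 4.04 to 4.32 after, changed by -1.17 (FDR 0.0039). Ttk neared the lowest value of the libraries at 6 months, so its decrease of at least 2.38 fold is a lower limit. Of the spindle, Kif4, Aspm, Hmmr, Ckap2, Ckap2l, Tpx2, Tacc3, Stmn1 and Kif15 fell by 0.70 (Kif15) to 1.41 (Kif4). Kif4 lost its call in 9 of 15 alternative settings and Bub1 in 6 of 15. Prc1 and Kif23, which build the midzone for cell division, changed by -1.24 and -0.88. Ccna2, the cyclin of S phase and G2, went from 4.63, 5.28 and 4.85 to 4.04, 3.99, 3.65 and 4.00, a change of -1.0 (SE 0.22, FDR 0.020). Ccnb1, the mitotic cyclin, was at 4.25 to 4.90 and then at 2.46 to 4.04, and did not pass (-1.28, SE 0.40, FDR 0.11). Ska1, of the outer kinetochore, was at the lowest value in all 4 libraries at 6 months and did not pass (FDR 0.32).

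Pimreg, a regulator of mitosis that is in neither list, had the largest change of all DEGs, from 5.25, 5.22 and 4.39 to 1.66, 1.23, 1.36 and 3.05. In 3 of the 4 6-month libraries it stood at the lowest value of the library, so the fitted change of -3.13 (SE 0.51, FDR 0.0026) depends on the constant added to low signals. Ankle1, a nuclease of the midbody (-2.22), Depdc1b (-2.20), the replication-coupled glycosylase Neil3 (-1.46) and the linker histone H1f5 (-1.47) were also among the 15 largest decreases. The call of Depdc1b was lost in 13 of 15 alternative settings and that of Neil3 in 9 of 15. Named after their values were seen, Kntc1, of the kinetochore (-1.24), Dtl, which guides a replication ubiquitin ligase (-1.43), Wee1, the kinase that delays mitosis (-1.18), Stil, of the centriole (-1.17), and Timeless, of the replication fork (-1.13), fell as well. These genes were picked from the called ones by what they do, and no list of division genes beyond the 2 was counted. Histone and other multigene families may share reads, and their members are uncertain.

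**Figure D2:**
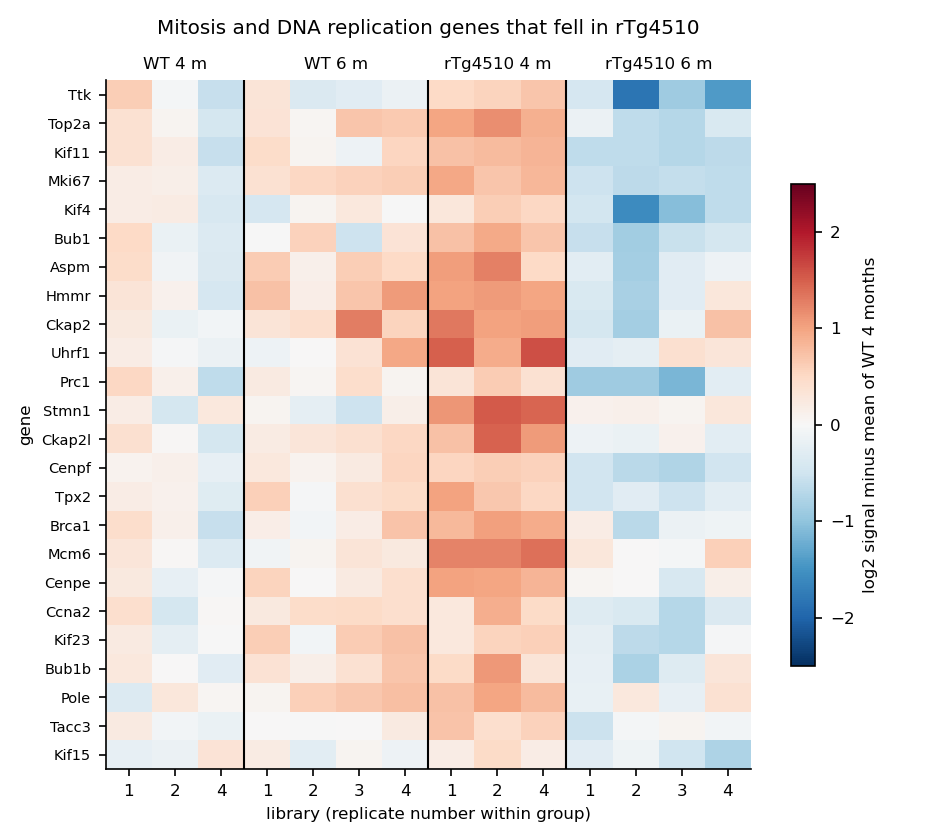
Log2 signal minus the WT 4-month mean (colour) of the 24 mitosis and DNA replication genes that fell, by gene (rows) and library (columns, replicate numbers within 4 groups). The 3 rTg4510 libraries at 4 months are above the WT 4-month mean in all 72 values, and 20 of the 96 values of the 6-month rTg4510 libraries are above it.

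Fewer DNA replication genes passed. Of 57 measured members 4 fell (Uhrf1, Brca1, Mcm6 and Pole) and 0 rose, where 0.506% of all genes fell, 50 had a change below 0, and the median was -0.29. Leaving out replicate 1, 2 or 4 at 4 months, or replicate 2 or 3 at 6 months, left 2 that fell. Mcm6, a subunit of the replicative helicase, was at 5.06, 5.06 and 5.20 at 4 months and at 4.10, 3.84, 3.77 and 4.42 at 6 months. No library of one age reached those of the other, and the change was -1.07 (SE 0.17, FDR 0.0025). Uhrf1, which carries DNA methylation through replication, went from 4.87, 4.30 and 4.97 to 3.09, 3.15, 3.76 and 3.68 (-1.29, SE 0.24, FDR 0.0073). Brca1, of recombination repair, changed by -1.10 (FDR 0.037), and Pole, a leading-strand polymerase subunit, by -0.78 (FDR 0.040). Brca1 lost its call in 11 of 16 alternative settings and Pole in 12 of 15. Ung (-1.34, FDR 0.11) and Chek1 (-1.12, FDR 0.14) did not pass. Upstream of replication, 1 of 25 G1 cyclins, kinases and inhibitors fell (0.506% of all genes), Cdk6 (7.0, 6.71 and 6.92, then 6.05 to 6.27; -0.74, FDR 0.0093). Gadd45a (0.72, FDR 0.13) and Cdkn2b (-0.74, FDR 0.48) did not pass.

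The promoters of the mitosis genes share sequence that was not used in the calls. The list was written by function, with earlier results of these data known, so such shares are a trait of the list and no test of the change. Many cell cycle promoters hold a cell cycle homology region, which the MuvB complexes bind, with the letters TTTGAA, and CCAAT boxes, which NF-Y binds. Both were searched on both strands from 250 bases before to 50 after each start in RefSeq promoters of GRCm38.p6. Of the 20 mitosis DEGs 17 matched, with 18 promoters, and 15 of these (83.3%) held TTTGAA, 16 (88.9%) CCAAT and 14 (77.8%) both. Of all 32851 promoters 17.9%, 37.4% and 6.95% did so. The mitosis members that were not called had them in 65%, 62.5% and 50% of 40 promoters, the DNA replication members in 11.8%, 56.9% and 7.84% of 51, and the other genes that fell in 15.9%, 39.7% and 12.7% of 63. The shares were higher than among all promoters in the mitosis members that were called and in those that were not, and a match describes letters and not a bound site. In the promoters printed here no TTTGAA overlaps a CCAAT. The 250 bases before the start are shown for the mitosis genes with the 3 lowest FDR values, 5′ to 3′ on the gene's strand, with TTTGAA and CCAAT, or their reverse complements TTCAAA and ATTGG, in capitals. They are Mki67 at chr7:135716380-135716629 (minus strand), Top2a at chr11:99024190-99024439 (minus strand) and Kif11 at chr19:37376132-37376381 (plus strand).
Mki67: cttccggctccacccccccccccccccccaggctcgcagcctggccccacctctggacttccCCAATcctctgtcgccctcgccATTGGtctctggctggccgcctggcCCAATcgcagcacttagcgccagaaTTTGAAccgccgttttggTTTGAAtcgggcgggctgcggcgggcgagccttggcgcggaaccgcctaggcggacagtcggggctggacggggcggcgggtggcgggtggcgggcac
Top2a: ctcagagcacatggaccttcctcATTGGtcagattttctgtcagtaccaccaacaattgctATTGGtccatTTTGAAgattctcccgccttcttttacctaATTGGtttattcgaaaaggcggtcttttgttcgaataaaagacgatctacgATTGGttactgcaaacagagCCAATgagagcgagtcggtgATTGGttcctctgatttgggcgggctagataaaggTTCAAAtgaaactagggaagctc
Kif11: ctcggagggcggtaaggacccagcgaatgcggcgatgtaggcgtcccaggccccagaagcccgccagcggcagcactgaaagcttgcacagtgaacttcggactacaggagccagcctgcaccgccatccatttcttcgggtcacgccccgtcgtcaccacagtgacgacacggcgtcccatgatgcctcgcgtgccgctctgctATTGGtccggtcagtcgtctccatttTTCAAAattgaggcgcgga
In Kif11 1 CCAAT box lies 40 and 1 TTTGAA 13 bases before the start. In Top2a the TTTGAA nearest the start, at 17 bases, is preceded by CCAAT boxes at 53, 73 and 93 bases, and in Mki67 those at 92 and 110 bases by boxes at 136, 161 and 183.

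In WT the mitosis list had a median change of 0.36, and its library means were 4.39, 4.15 and 3.94 at 4 months and 4.48, 4.37, 4.41 and 4.63 at 6 months. Mki67 in WT was at 5.01, 4.96 and 4.48 and then at 5.19, 5.34, 5.4 and 5.44, a change of 0.53 that did not pass (FDR 0.22). The WT values at 6 months were all above those at 4 months, and the difference of the age changes was -1.96 (SE 0.21, FDR 0.00019). That of Top2a was -1.91 (SE 0.27, FDR 0.0033), and that of Kif11 -1.68 (SE 0.28, FDR 0.019). Across all genes 1 passed in WT (0.00538%), Hcar2, a receptor for ketone bodies (0.75, FDR 0.018), and 1608 had an unadjusted p under 0.05. No gene passed in WT without its replicate 2 at 4 months or replicate 4 at 6 months, and 8 passed without its replicate 1 at 6 months. Of the 58 genes that rose in rTg4510, 46 also had a change above 0 in WT, and of the 94 that fell 39 had one below 0. Between the genotypes the age change differed for 29 genes (0.156%), 22 with a lower (0.118%) and 7 with a higher (0.0377%) change in rTg4510. Of the 152 DEGs 23 were among these 29, 5 that rose and 18 that fell. Of the 64 mitosis members 7 were among the 29: Mki67, Top2a, Kif11, Aspm, Cenpf, Cenpe and Birc5, the survivin gene, which alone of these missed the limits in rTg4510 (-0.94, FDR 0.067). Of the 57 DNA replication members Mcm6 was among them (-1.21, FDR 0.048). WT and rTg4510 libraries of the same number varied together at 6 months, and with a replicate block within age, which leaves 10 residual degrees of freedom, 11 genes passed, 3 of them mitosis members and 0 DNA replication members. Of the 15 differences named for their size 4 passed with the block, those of Mki67 (FDR 0.025), Top2a (FDR 0.035), Akr1c13 (FDR 0.043) and 4933416M07Rik (FDR 0.040). Those of Kntc1 (FDR 0.055), Dpep2 (FDR 0.055), Aspm (FDR 0.057), Pimreg (FDR 0.074), Dtl (FDR 0.074), Birc5 (FDR 0.082), Kif11 (FDR 0.092), Apoa2 (FDR 0.11), Hcn3 (FDR 0.13), Hspe1 (FDR 0.15) and Lrguk (FDR 0.21) did not. Over the alternative settings the difference of Mki67 was lost in 0 of 24, and that of Top2a in 2 of 23. Losses were 4 of 23 for Kntc1, 5 for Dpep2, 9 for Kif11 and 4933416M07Rik, and 14 of 24 for Dtl. They were 16 of 23 for Pimreg and Aspm, 18 for Akr1c13, and 19 for Birc5 and Lrguk. Hcn3 and Hspe1 lost the call in 20 of 24 and Apoa2 in 21. Between 6 and 18 passed when 1 of these libraries was left out: rTg4510 replicate 1 or 2 at 4 months or 1, 2 or 3 at 6 months, WT replicate 1, 2 or 4 at 4 months or 3 or 4 at 6 months.

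The upward differences between genotypes were of other kinds. Hcn3, a pacemaker channel subunit, was at 3.43, 4.16 and 3.67 at 4 months and at 5.6, 5.67, 6.10 and 5.45 at 6 months in rTg4510. The ages did not overlap. In WT it changed by -0.54, and the age changes differed by 2.49 (SE 0.49, FDR 0.046). Dpep2, a membrane dipeptidase that cleaves leukotriene D4, went from 3.14, 2.24 and 2.44 to 4.6, 4.63, 4.74 and 3.95, with a difference of 2.36 (FDR 0.015). Its 4-month values were below the 3.88 to 4.48 of WT at that age. Lrguk (1.04), Akr1c13, an aldo-keto reductase (1.56), and the lncRNA 4933416M07Rik (2.75) also had higher changes in rTg4510, the last with a 4-month level near the lowest value. Apoa2 (0.87) and Hspe1, a mitochondrial chaperonin (0.60), differed between genotypes without passing in rTg4510 alone. At 4 months rTg4510 minus WT was -1.58 for Hcn3, -1.155 for 4933416M07Rik, -1.08 for Apoa2 and -0.96 for Akr1c13. At that age these were thus below WT, as Dpep2 was, while Lrguk (1.97) and Hspe1 (0.67) were above it. At 2 months rTg4510 minus WT was -0.49 for Hcn3, -0.32 for Apoa2, -0.029 for Dpep2, 0.064 for Akr1c13 and 0.14 for 4933416M07Rik.

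**Figure D3:**
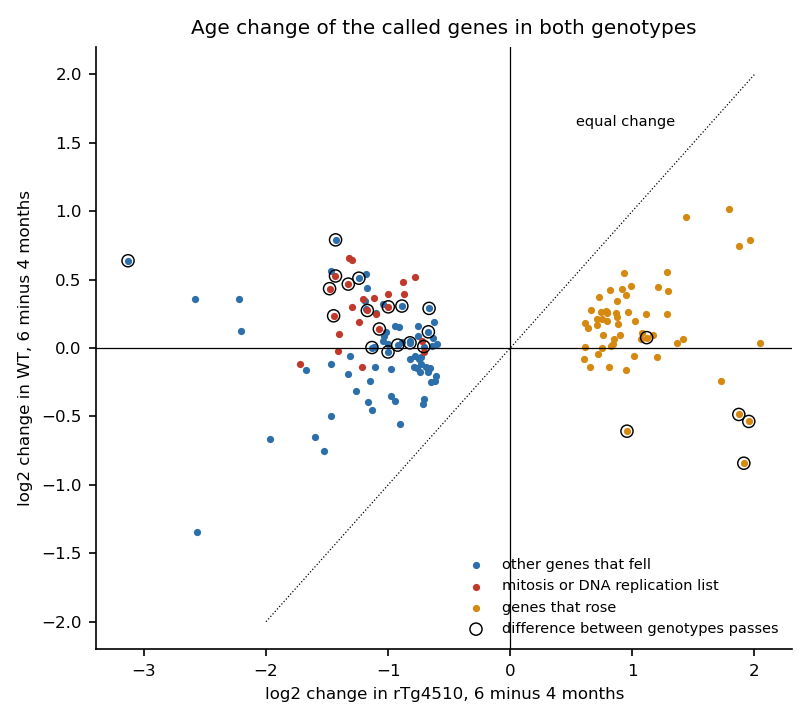
Log2 change between 4 and 6 months of the 152 DEGs in rTg4510 (x axis) and in WT (y axis), with rings around genes whose change differed between genotypes. The mitosis and DNA replication genes lie left of 0 on the x axis and mostly above 0 on the y axis.

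Of the 94 genes that fell, 70 were in neither list, and among them Hlf and Gpr165 were below WT at both ages. The comparisons with WT at 4 and 6 months share libraries with the age change, so their values stand beside it without a test of their likeness. Hlf, a PAR bZIP transcription factor that follows the circadian clock, was at 5.78, 5.89 and 5.20 at 4 months and at 4.06, 3.66, 4.49 and 3.58 at 6 months. It was lower at 6 months in every library and changed by -1.68 (SE 0.23, FDR 0.00048). Against WT it was at -2.30 at 4 months and -3.81 at 6 months. It was the 1 DEG of 19 clock and PAR bZIP genes, where 0.506% of all genes fell, and its relative Tef did not pass (-0.33, FDR 0.58). Gpr165, an orphan receptor of resting microglia, was at 9.43, 9.53 and 9.25 and then at 8.16, 8.40, 8.40 and 8.06, without overlap. It changed by -1.15 (SE 0.16, FDR 0.00058) and lay 3.21 log2 units under WT at 6 months.

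Of 44 homeostatic microglial genes Gpr165 and Ecscr (2) fell and 0 rose, where 0.506% of all genes fell. The list median was -0.071, and 34 of the 44 changes were below 0. At unadjusted p under 0.05 by limma there were 15, where 14% of all genes had such a p. The list means were 9.68, 9.72 and 9.71 at 4 months and 9.49, 9.56, 9.58 and 9.58 at 6 months, without overlap. Nav3 (-0.52, FDR 0.014) stayed under 1.5 fold, and Slc2a5, a fructose transporter, did not pass (-0.47, FDR 0.14). Bank1, a scaffold of B cell receptor signalling, had the lowest FDR of all DEGs. It was at 6.38, 6.47 and 6.35 and then at 5.70, 5.79, 5.68 and 5.6, without overlap, and changed by -0.71 (SE 0.0645, FDR 1.2e-05). The difference from the change in WT was -0.72 (FDR 0.0014). Serpinf1, the secreted factor PEDF, went from 7.62, 7.54 and 7.89 to 6.56, 6.51, 6.61 and 6.53 (-1.13, FDR 0.00042), with a difference of -1.14 (FDR 0.023). Adra2a, an adrenergic receptor (-1.18), Il7r, the receptor of interleukin 7 (-0.76), and Syt6 (-1.02) fell too. Bank1, Serpinf1, Adra2a, Il7r and Syt6 were named after their values were seen.

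Among the other large decreases, Wipf3, an actin regulator, was at 6.05, 5.60 and 5.97 and then at 3.53, 3.73, 2.58 and 3.31, a change of -2.59 (SE 0.49, FDR 0.0081), and its mean at 8 months was 5.92. Pde1a, a calmodulin-dependent phosphodiesterase, changed by -2.56 (SE 0.60, FDR 0.031), with 1 library at 6 months at the lowest value. Rgs7bp, which anchors RGS proteins at the membrane, went from 4.49, 4.89 and 4.22 to 2.77, 3.32, 2.70 and 2.93 (-1.60, FDR 0.00042). Bmp1, a procollagen protease, changed by -1.47 (FDR 0.010). Kank4 was near the lowest value at 6 months, and its decrease was at least 1.92 fold. Kank4 lost its call in 12 of 15 alternative settings and Pde1a in 10 of 16. In WT the change was also below 0 for Pde1a (-1.34), Kank4 (-0.66), Rgs7bp (-0.65) and Bmp1 (-0.50), and was 0.36 for Wipf3. The difference between genotypes passed for none of these genes (FDR 0.11 for Wipf3 to 0.79 for Pde1a). At 8 months in rTg4510 Pde1a averaged 4.66, Kank4 3.76, Bmp1 3.24 and Rgs7bp 3.12. Gm11223, a pseudogene whose reads may belong to its parent, changed by -1.33.

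A few genes fell while still far above WT. Tnfrsf11b, the decoy receptor osteoprotegerin, was at 6.52, 6.97 and 6.78 at 4 months and at 5.73, 5.93, 5.67 and 6.15 at 6 months. All 6-month values were lower, by -0.89 on average (SE 0.14, FDR 0.0025). The WT libraries lay between 1.63 and 2.33, and the age changes differed by -1.19 (FDR 0.019). It was the 1 DEG of the 44 genes in the cytokine and receptor list, which did not hold Il7r, where 0.506% of all genes fell. Ccl6, a chemokine of microglia and macrophages, went from 9.69, 9.58 and 9.58 to 8.97, 8.84, 8.99 and 8.91, without overlap (-0.69, SE 0.087, FDR 0.00042), against 7.01 to 7.51 in WT. Klrb1a (-0.68), a lectin receptor, and Il4i1b (-0.75), an amino acid oxidase, named after their values were seen, were also above WT at both ages and may share reads with close relatives.

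**Figure D4:**
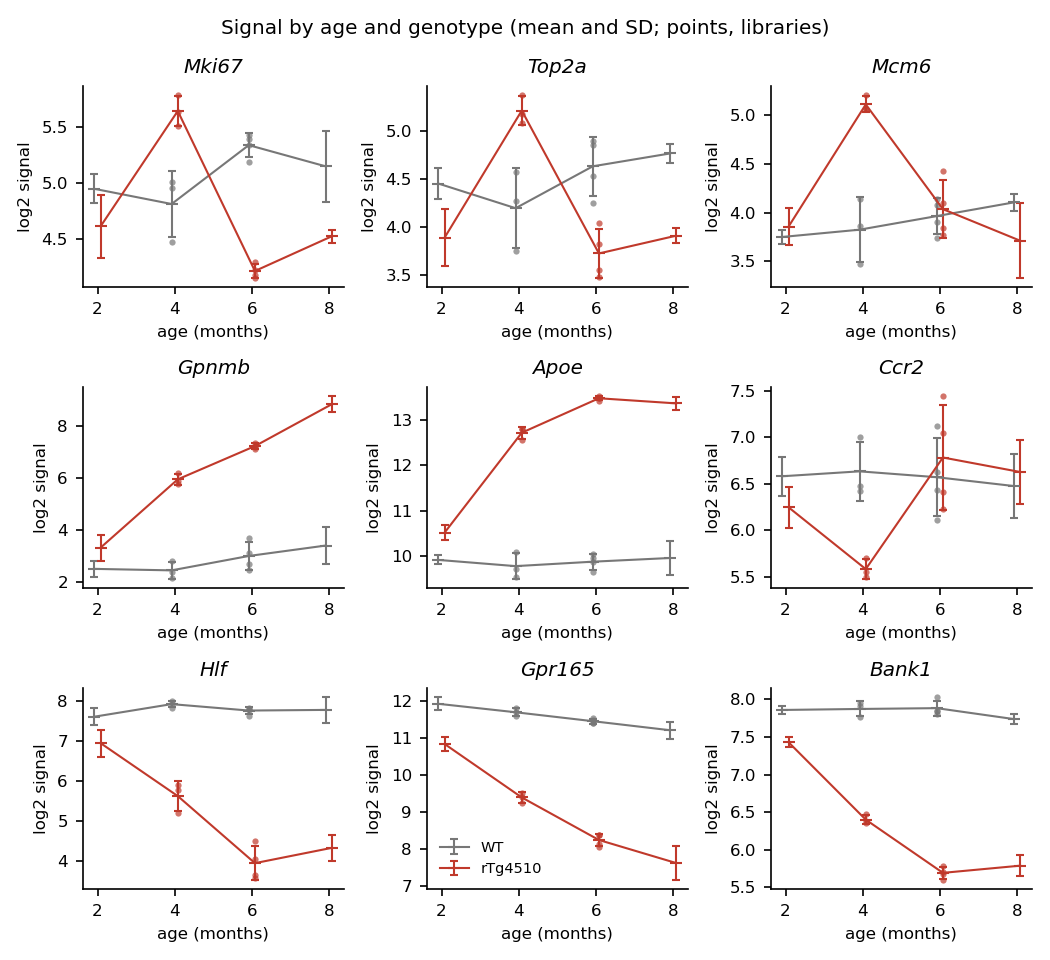
Log2 signal (y axis) of 9 genes called in rTg4510, by age in months (x axis; 2, 4, 6, 8) and genotype, as group mean and SD with the libraries of 4 and 6 months as points. Mki67, Top2a and Mcm6 peak at 4 months in rTg4510, Gpnmb is higher at 6 than at 4 months, and Hlf, Gpr165 and Bank1 are lower at 6 than at 4 months in rTg4510.

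Among the 58 genes that rose were a few of the disease-associated microglial signature. Of its 53 members Gpnmb, Lox and Apoe rose (3), 1 (Ccl6) fell, and the median was 0.18, where 0.312% of all genes rose. Gpnmb, a lysosome-associated glycoprotein, was at 5.76, 5.89 and 6.19 at 4 months and at 7.10, 7.24, 7.36 and 7.20 at 6 months. Every 6-month library was higher, and the change was 1.28 (SE 0.32, FDR 0.043). In WT it lay between 2.15 and 3.69 over both ages. The call of Gpnmb was kept in 3 of 15 alternative settings and was lost on leaving out any 1 of the 7 libraries, with quantile normalization (FDR 0.069) and with a replicate block over all groups (FDR 0.082). Apoe, the lipoprotein that carries cholesterol between brain cells, went from 12.79, 12.57 and 12.80 to 13.49, 13.49, 13.53 and 13.42, all higher (0.76, SE 0.14, FDR 0.0078). Lox, a collagen cross-linking oxidase, went from 6.4, 5.90 and 6.68 to 7.14, 7.43, 7.38 and 7.23 (0.96, FDR 0.044), and its call was lost in 11 of 15 settings, among them the replicate block (FDR 0.064) and leaving out any library but replicate 4 at 4 months. That of Apoe was lost in 5 of 16. The difference between the changes in rTg4510 and in WT did not pass for these genes (Gpnmb 0.73, FDR 0.74; Apoe 0.66, FDR 0.30; Lox 0.70, FDR 0.62). Cxcr4 (0.71, FDR 0.26) and Fabp5 (0.75, FDR 0.41) did not pass.

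Lysosomal, lipid and redox genes added single members, where 0.312% of all genes rose. Atp6v0d2, a proton pump subunit of macrophages and osteoclasts, was the 1 of 60 lysosomal genes that rose, from 3.58, 3.82 and 4.21 to 5.02, 4.74, 4.96 and 4.40 (0.91, FDR 0.026). All 6-month libraries were higher, the call was lost in 9 of 15 settings, and the lysosomal median was 0.098. Ctsk, an osteoclast cathepsin, varied widely and did not pass (-1.43, FDR 0.34). Apoe was the 1 of 29 sterol efflux and lipid handling genes, and Pparg did not pass (1.01, FDR 0.29). Gpx3, a secreted glutathione peroxidase, was the 1 of 27 antioxidant genes, going from 5.25, 5.04 and 5.45 to 6.39, 6.25, 6.30 and 6.32 (1.07, FDR 0.0093). Lyz2, lysozyme M (0.78), its close copy Lyz1 (0.88), with which reads may be shared, Cd44, a hyaluronan receptor (0.83), Hpse, heparanase (1.02), and Xdh, xanthine dehydrogenase (0.90), were named after their values were seen and rose as well.

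Ccl8, a monocyte-attracting chemokine, had the largest increase among the protein-coding genes, from 3.69, 5.08 and 5.74 to 7.04, 6.81, 7.07 and 6.30. The 4-month libraries differed among themselves by about 2 units, and the change was 1.96 (SE 0.39, FDR 0.010). Among 24 chemokines Ccl8 rose and Ccl6 fell, where 0.312% of all genes rose and 0.506% fell. The median was -0.058, and Cxcl9 did not pass (1.41, FDR 0.087). Gdf3, a TGF-beta family ligand, went from 3.38, 3.38 and 3.53 to 5.49, 4.74, 5.51 and 5.16 (1.79, FDR 0.022). Emp1, a membrane protein of the PMP22 family, went from 3.90, 3.52 and 3.92 to 5.78, 5.68, 5.29 and 5.27 (1.73, FDR 0.0089). Both were well separated between the ages. P2ry2, a receptor for extracellular nucleotides (1.21), Slc41a2, a magnesium transporter (1.87), Kif1a, a vesicle motor (1.37), Sel1l3 (1.42), Egfem1 (1.30), Minar1 (1.28) and Mob3b (1.17) completed the named increases together with those given elsewhere. Of these, Sel1l3 (9 of 15), Mob3b (8 of 16), Kif1a (8 of 15) and Gdf3 (8 of 15) lost their calls most often over the alternative settings. The lncRNA Gm12216 rose at least 1.94 fold from near the lowest value.

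Other gene lists of microglial activation and metabolism held no called gene among their members. The lists do not hold every gene of a kind, and the called Gdf3 was outside the TGF-beta list. No DEG was found among 64 type I interferon, 17 MHC class II, 25 MHC class I, 20 NF-κB, 25 complement, 28 cholesterol synthesis, 33 glycolysis, 76 oxidative phosphorylation, 79 ribosomal protein, 30 immediate early, 21 heat shock, 26 integrated stress response, 30 TGF-beta, 17 iron and 27 lineage transcription factor genes. At unadjusted p under 0.05 by limma the lists held from 1 gene, in the integrated stress response, to 31, among the ribosomal protein genes, where 14% of all genes had such a p. The interferon list held 8 of 64, MHC class II 9 of 17, MHC class I 11 of 25 and the ribosomal proteins 31 of 79. List medians ran from -0.15 for heat shock chaperones to 0.28 for MHC class II, in which 16 of 17 changes were above 0. In WT the medians were -0.27 for heat shock chaperones and 0.18 for MHC class II. The MHC class I median was 0.19 in rTg4510 and 0.14 in WT, and that of the interferon list 0.12 and 0.09. H2-Eb1 (0.68, FDR 0.13) and H2-Ea (0.83, FDR 0.14), both of the MHC class II list, did not pass. Rpl10 (0.45, FDR 0.033) was under 1.5 fold, and 76 of the 79 ribosomal protein changes were above 0, with a median of 0.19 against -0.030 in WT.

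Of 14 endothelial markers Esam and Pecam1 fell (2), where 0.506% of all genes fell, and the list median was -0.63 in rTg4510 and -0.40 in WT. Its library means were 4.62, 5.26 and 4.92 at 4 months and 4.31, 4.57, 4.05 and 4.42 at 6 months, and the summed linear signals were 1118 to 1372 and 901 to 1029. Pecam1, an adhesion molecule of endothelium and leukocytes, was at 3.96, 4.66 and 4.56 and then at 3.36, 3.49, 2.81 and 3.24 (-1.16, SE 0.15, FDR 0.00042), without overlap. Esam changed by -1.53 (FDR 0.046), and its call was lost in 12 of 15 alternative settings, among them quantile normalization (FDR 0.13) and leaving out any 1 of the 7 libraries. The defining marker Cldn5 did not pass (-0.98, FDR 0.44), and no endothelial marker was at the lowest value in all 7 libraries. Notch4, an endothelial receptor, fell at least 1.67 fold, and was named after its value was seen. The part of endothelial RNA in these decreases was not tested.

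Ccr2, the receptor that brings monocytes from the blood, was at 5.55, 5.50 and 5.70 at 4 months and at 7.44, 7.05, 6.41 and 6.23 at 6 months. Replicates 1 and 2 at 6 months were the highest, and the ages did not overlap (1.2, SE 0.27, FDR 0.023). In WT it lay between 6.11 and 7.12 at both ages, and the 4-month rTg4510 libraries were below all of these. Ccr2 was the 1 of 13 monocyte markers that rose, where 0.312% of all genes rose, and the list median was 0.47. The list means were 4.54, 4.33 and 4.17 and then 4.93, 4.76, 4.83 and 4.15, with replicate 4 at 6 months under all others. Plac8 (-0.94, FDR 0.37) and Vcan (1.70, FDR 0.13) did not pass. Cd209a, a C-type lectin of dendritic cells, rose (0.93, FDR 0.019) as the 1 of 13 dendritic cell markers, with its call lost in 8 of 16 settings, and its family member Cd209d rose by 1.44. Abcc9 rose (0.81, FDR 0.0064) as the 1 of 12 pericyte and fibroblast markers. Of these 12, 8 had a change below 0, and the list median was -0.20. The part of monocytes, dendritic cells or pericytes in these increases was not tested.

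Of 17 neutrophil markers 0 passed (4 at unadjusted p under 0.05 by limma), 16 had a change below 0 with a median of -0.64, and the list means were 5.12, 5.32 and 4.75 and then 4.5, 4.48, 4.66 and 4.31, so each 6-month library was lower. S100a8, a calcium-binding protein of neutrophils, changed by -1.13 (FDR 0.20). No marker passed among 15 border macrophage, 22 T and NK cell, 13 B cell, 18 oligodendrocyte, 8 oligodendrocyte precursor, 14 astrocyte, 13 neuron, 4 erythroid and 5 choroid plexus genes, with 0 to 3 of each at unadjusted p under 0.05. Their medians ran from -1.07 for the erythroid genes to 0.25 for the border macrophage genes. Mpo, an enzyme of neutrophil granules, was at 1.46 to 2.01 at 6 months and did not pass (-1.27, FDR 0.48).

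The 2- and 8-month libraries took no part in the contrast and show where these genes lay at other ages. Of the 58 genes that rose, 43 were called higher in rTg4510 than in WT at 8 months, 1 lower and 14 neither, where 10.5% of all genes were called higher. At 2 months 6 were called higher, against 1.58%. Of the 94 that fell, 42 were called lower at 8 months (5.37% of all genes), 4 higher and 48 neither, and at 2 months 8 were called lower (0.403%) and 3 higher. Of the 24 mitosis and DNA replication DEGs 7 were called lower at 8 months, with a median of -0.58, and of the 70 others 35. At 2 months 0 of the 24 were called in either direction, with a median of -0.34. Gpnmb was 5.45 log2 units above WT at 8 months and 0.82 at 2 months. Hlf was 3.44 below WT at 8 months and 0.66 below at 2 months.

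**Figure D5:**
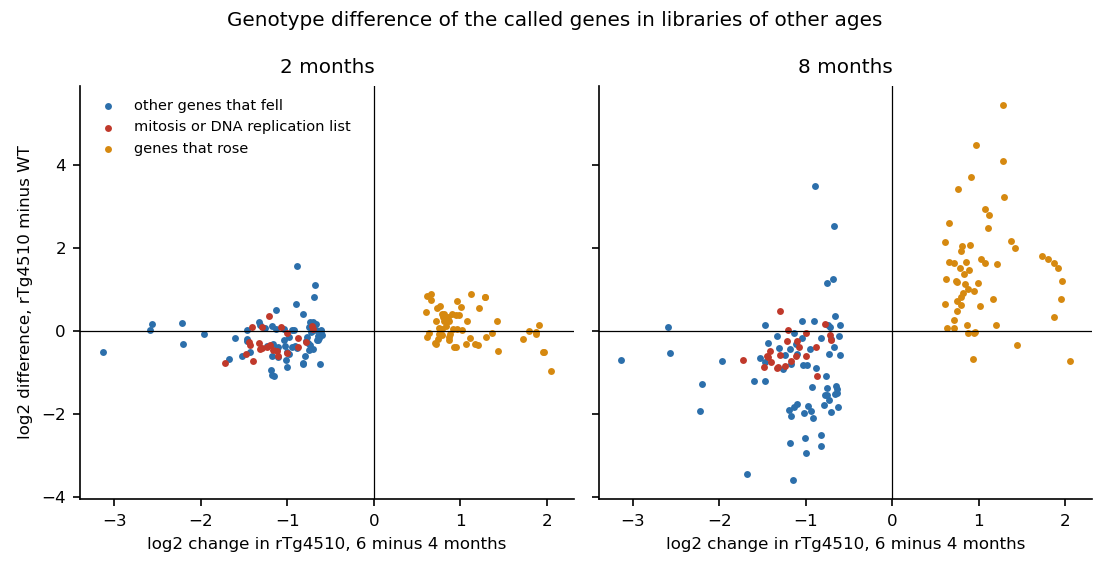
Log2 difference between rTg4510 and WT (y axis) of the 152 DEGs at 2 months (left) and 8 months (right) against their log2 change between 4 and 6 months in rTg4510 (x axis). At 8 months 43 of the 58 genes that rose were called higher than in WT and 42 of the 94 that fell lower, and at 2 months 6 and 8 were.

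The neighbouring steps within rTg4510 share libraries with this one and are given by their own counts. From 2 to 4 months 1187 genes passed (6.39%), and from 6 to 8 months 1 (0.00538%). At unadjusted p under 0.05 by limma there were 5065 from 2 to 4 months and 2685 from 6 to 8 months. From 4 to 6 months there were 2605, so the counts that passed do not show that change ended at 6 months. Mki67 in rTg4510 averaged 4.62 at 2 months and 4.53 at 8 months. The genes nearest the limits were Kctd9 (-0.60, FDR 0.041), just inside 1.5 fold, and Gm10232 (-0.58), just outside, and Myof (FDR 0.050), just inside the FDR limit, and A930033H14Rik (FDR 0.052), just outside. Of the 152 DEGs 139 were protein-coding, 6 lncRNAs, 5 pseudogenes and 2 without a name, and 10 were near the lowest value at one of the ages.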

How the data were processed

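Microglia RNA from WT and rTg4510 mice of 4 ages had been amplified (NuGEN Ovation) and sequenced as paired ends. The deposited log2 signals were made by the authors from exon reads, 1 per gene: repeat runs of a library were summed, exons with low counts left out, the exons of a gene combined by a robust linear model, and libraries set to the same median. The genome build was GRCm38 per the submitters' processing notes, and the aligner and the annotation are not given in the sources used here, nor whether reads were counted by strand or shared between copies. Low signals are compressed: of 25397 low values 47.5% lay on steps of the log2 of a whole count plus 1.5, against 1.1% if spread evenly, so whole reads could not be recovered and a count test was not run. Changes of low genes are understated or depend on that constant, and where a group was near the lowest value the fold was taken against 3 counts per library and written as "at least".

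Genotype and age came from the labels, and 4 libraries that failed RNAseq QC by the authors were left out. A linear model with 8 group means was fitted to 28 libraries with limma 3.58.1 in R 4.3.3, with unmoderated variances and 20 residual degrees of freedom, and two-sided p-values were adjusted by the Benjamini-Hochberg method over 18588 genes within each contrast. A gene was called at an FDR under 0.05 and over 1.5 fold. Replicates are separate pools by the study's methods. Gene names were matched by Entrez number to RefSeq for 17828 genes (95.9%). Promoters were RefSeq sequences, and the letters are descriptions. The script was tested on simulated data.

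Named genes are the 15 largest increases and 15 largest decreases among protein-coding and lncRNA genes whose ages did not overlap, predicted genes and pseudogenes apart, of which the largest of each direction was named, the 8 largest of each direction of the difference between genotypes, up to 6 members of a list in each direction and 2 to 4 that did not pass, Mapt and Prnp, and the genes nearest the limits, and others are said to be named after their values were seen. The members, lists and tests were chosen with earlier results of these data known. Replicate numbers were checked for pairing by the correlation of deviations from group means. Between 4 and 6 months in rTg4510 it was 0.0783, 0.122 and 0.102 for same-numbered libraries, and -0.125 to 0.0972 for others. Each same-numbered value was the highest for its 4-month library, and these values do not settle pairing. The main fit did not pair the libraries, and a replicate block over all groups was an alternative. Between same-numbered WT and rTg4510 libraries it was 0.131 to 0.153 at 6 months, but -0.0999, 0.124 and -0.0819 at 4 months. Alternatives were moderated variances, only the libraries compared, all 32 libraries, quantile normalization, a filter on low signals, a constant of 8 added before log2, a replicate block and leaving out each library; the fits of 6-month libraries 1 and 2 or 3 and 4 alone were added after seeing the data.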

Additional observations from a re-analysis of the deposited data

Results flagged for a closer look

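Replicate 4 at 6 months stood apart from the other rTg4510 libraries of that age in 2 of 93 named genes and list means tested for a single distant library, and chance flags about 1 in 20 such groups. Its Cd209a signal was 6.763, with the others between 7.354 and 7.408, and its mean over the dendritic cell markers was 5.131, with the others between 5.74 and 5.811.

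The change between 4 and 6 months differed between rTg4510 and WT, by the test of the difference itself, for these named genes. The change was lower in rTg4510 for Pimreg (-3.768), Dtl (-2.221), Mki67 (-1.958), Top2a (-1.913), Birc5 (-1.829), Aspm (-1.794), Kntc1 (-1.75) and Kif11 (-1.682). It was higher for Hspe1 (0.5988), Apoa2 (0.8711), Lrguk (1.041), Akr1c13 (1.563), Dpep2 (2.357), Hcn3 (2.49) and 4933416M07Rik (2.754). All are log2 values, and their FDR was under 0.05 by limma with Benjamini-Hochberg adjustment. With a replicate block within age 4 of the 15 stayed under 0.05 (Mki67, Top2a, Akr1c13 and 4933416M07Rik), and the other 11 did not.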

How the results depend on the processing

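All 64 named results past the limits kept their direction in the alternatives in which they were tested. Setting aside the fit of only the libraries compared and the pairs of 6-month libraries, 15 stayed past the limits wherever they were tested. Kif11 and the difference of Mki67 stayed past them in the fit of only the libraries compared too. The filter on low signals removed 39 named results, so it did not test them. Among these were Kif11, Top2a and its difference, Pimreg, Dpep2, Ttk, Rgs7bp, Uhrf1 and Mcm6. The 152 DEGs became 167 with moderated variances, 1 with only the libraries compared, 176 with all 32 libraries, 104 with quantile normalization, 82 among genes above the 25th percentile of signal (70 DEGs lay below it), 131 with 8 added before log2, and 82 and 55 with 6-month libraries 1 and 2 or 3 and 4 alone. Leaving out each library gave 65 to 154. The 29 genes whose age change differed became 5 with only the libraries compared, 6 with all 32, 13 with quantile normalization, 7 above the 25th percentile, 2 and 3 with the pairs of libraries, and 6 to 33 leaving out each library.

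The 20 mitosis members that fell became 1, 11 and 5 with only the libraries compared, quantile normalization and the filter, 11 and 8 with the pairs of libraries, and 8 to 19 leaving out each library, where the list's median ranged from -0.879 to -0.788. The members whose age change differed numbered 2 to 12 there. The 4 DNA replication members that fell became 0 with only the libraries compared, 2 with all 32 libraries, 2 with quantile normalization, 1 with the filter, 2 and 1 with the pairs, and 2 to 3 leaving out each library. Its median ranged from -0.344 to -0.261, and 0 to 2 of its members differed. The 1 WT DEG became 0 with moderated variances, only the libraries compared, all 32 libraries, the replicate block or libraries 1 and 2, 2 with the filter or the added constant, 4 with libraries 3 and 4, and 0 to 8 leaving out each library.

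With a replicate block over all groups 146 genes passed in rTg4510, 131 of them among the 152, and 30 differed between genotypes. With the replicate block within age 11 differed, 8 of them among the 29. The cause of these changes was not tested beyond the fewer genes, libraries and degrees of freedom named. Depth is unknown, so low signals set no stated limit.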
